A study of Rattus norvegicus with 74 samples.

Results

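Collagen genes were taken as the protein-coding genes of the deposited count tables whose symbol has the form Col, number, a, number, and 44 of the 30560 genes in the tables met that rule. By textbook class these were 11 fibrillar collagen genes, 8 basement membrane genes (type IV, XV and XVIII), 9 fibril-associated genes (the FACIT collagens, which sit on fibril surfaces), 6 type VI genes, 3 short-chain genes (type VIII and X), 4 transmembrane genes and 3 anchoring or other genes. Total RNA was sequenced from male wild-type Wistar Kyoto rats aged 9 weeks. Trained rats (ExT) began treadmill running at an age of 5 weeks and ran for 4 weeks, 5 days in each, with sessions of up to 60 min at 20 m/min driven by a motor. Sedentary rats (Sed) were placed on a treadmill that did not move. All rats drank water with 8% deuterium oxide, and sampling followed the final session by 24 h. The 74 libraries came from the red inner gastrocnemius, a hindlimb muscle (SM, 15 Sed and 15 ExT), from mitochondria captured with antibodies from fresh muscle of the same 30 rats and digested with RNase-A plus proteinase-K (MT, 15 and 15), and from the left ventricle wall of 14 of these rats (LV, 7 and 7). The series was made to ask whether muscle mitochondria carry RNA encoded in the nucleus and whether training alters it.

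Collagens are triple helices of 3 α chains, each chain encoded by its own gene. Fibrillar collagens, chiefly type I and type III with smaller amounts of type V, form the cable-like fibrils of tendon, of the connective tissue around muscle fibres and of the heart wall, and are made mainly by fibroblasts and tenocytes. Type IV collagen forms the sheet-like network of basement membranes, which wrap each muscle fibre, each cardiomyocyte and each capillary. The type IV chains assemble into a few fixed trimers. The common one holds α1 and α2 chains, and the others hold α3, α4 and α5 chains or α5 and α6 chains. Type VI collagen makes beaded filaments that link the basement membrane to the surrounding matrix, and FACIT collagens decorate fibrils, with type XXII placed at the junction of muscle and tendon.

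The 6 type IV genes lie in pairs that start on opposite strands and run apart, and their start regions are shown because the levels of the partners are compared below. Each sequence is the RefSeq window from 250 bases before to 50 bases after the annotated start (build GRCr8), written 5′ to 3′ on the gene's own strand, with capitals marking the GC box GGGCGG and the CCAAT box on either strand.
Col4a1: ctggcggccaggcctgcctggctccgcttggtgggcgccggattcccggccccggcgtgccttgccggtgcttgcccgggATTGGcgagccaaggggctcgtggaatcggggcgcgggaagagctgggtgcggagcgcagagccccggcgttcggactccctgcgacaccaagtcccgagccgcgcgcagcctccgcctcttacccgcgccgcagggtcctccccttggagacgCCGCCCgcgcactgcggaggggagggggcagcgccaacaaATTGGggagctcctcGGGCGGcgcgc
Col4a2: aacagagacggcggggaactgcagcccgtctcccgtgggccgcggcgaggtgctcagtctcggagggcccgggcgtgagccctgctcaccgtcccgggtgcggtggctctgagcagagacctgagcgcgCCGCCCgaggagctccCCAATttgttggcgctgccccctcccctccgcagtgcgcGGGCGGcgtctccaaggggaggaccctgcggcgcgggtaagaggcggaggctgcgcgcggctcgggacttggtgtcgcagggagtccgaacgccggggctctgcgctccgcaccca
Col4a3: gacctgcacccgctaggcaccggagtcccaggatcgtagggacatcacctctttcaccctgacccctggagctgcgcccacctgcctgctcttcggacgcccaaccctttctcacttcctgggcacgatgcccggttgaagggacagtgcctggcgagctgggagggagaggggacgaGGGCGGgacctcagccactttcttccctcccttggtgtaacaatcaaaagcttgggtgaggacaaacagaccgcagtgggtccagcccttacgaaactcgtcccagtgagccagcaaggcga
Col4a4: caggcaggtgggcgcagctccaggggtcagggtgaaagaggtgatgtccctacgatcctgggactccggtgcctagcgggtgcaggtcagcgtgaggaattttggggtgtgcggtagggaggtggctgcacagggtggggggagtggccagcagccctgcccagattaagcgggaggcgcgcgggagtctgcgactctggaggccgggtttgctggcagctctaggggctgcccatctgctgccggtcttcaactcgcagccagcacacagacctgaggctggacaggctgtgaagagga
Col4a5: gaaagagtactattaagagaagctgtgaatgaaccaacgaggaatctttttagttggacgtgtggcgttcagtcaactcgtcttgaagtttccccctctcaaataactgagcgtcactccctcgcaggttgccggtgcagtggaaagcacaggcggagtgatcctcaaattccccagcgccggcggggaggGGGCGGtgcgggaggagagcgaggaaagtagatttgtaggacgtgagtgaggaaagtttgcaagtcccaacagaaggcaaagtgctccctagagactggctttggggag
Col4a6: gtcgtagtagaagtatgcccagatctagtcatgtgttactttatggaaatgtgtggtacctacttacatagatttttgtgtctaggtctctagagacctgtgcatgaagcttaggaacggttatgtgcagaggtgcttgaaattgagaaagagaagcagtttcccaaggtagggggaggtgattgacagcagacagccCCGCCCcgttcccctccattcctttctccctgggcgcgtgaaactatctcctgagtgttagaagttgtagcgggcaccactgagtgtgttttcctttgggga
The Col4a1 window is chr16:84885347-84885646 on the plus strand and the Col4a2 window is chr16:84885471-84885770 on the minus strand. Their annotated starts are 77 bases apart, so the windows share 176 bases read from opposite strands. The Col4a3 window is chr9:91323740-91324039 (plus strand) and the Col4a4 window chr9:91323528-91323827 (minus strand), with starts 413 bases apart and 88 shared bases. Col4a5 (chrX:109907109-109907408, plus strand) and Col4a6 (chrX:109905895-109906194, minus strand) start 1415 bases apart, and their windows share no base. GC content was 75% and 73.67% in the first pair, 62% and 65.33% in the second and 53.33% and 48.33% in the third. The GC box was found in every window except that of Col4a4, against 33.06% of all 33469 windows of this length in the table. CCAAT was found only in the windows of Col4a1 and Col4a2, against 37.49% of all windows, and TATAAA in none of the 6, against 14.22%. The bases shared by the Col4a1 and Col4a2 windows hold 2 GC boxes and 1 CCAAT box, so those sites are counted in both. Over all collagen genes with a window, the GC box was found in 20 of 38 windows, CCAAT in 12 and TATAAA in 4.

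Total counts per library were 19478000 to 39401300 in SM, 530397 to 9988030 in MT and 54645700 to 75758800 in LV. Levels in SM and LV are given as CPM, counts scaled to library size, after TMM scaling over both tissues, on which 3 counts equal 0.0761 to 0.154 CPM in SM and 0.0396 to 0.0549 CPM in LV. No coding lengths were used, so levels are compared between samples for one gene and not between genes. Skeletal fibre genes summed to at least 92460 CPM in every SM library and at most 5764 CPM in LV, and cardiomyocyte genes to at least 24171 CPM in every LV library and at most 1066 CPM in SM, so both labels held. Markers of connective tissue, nerve and vessel differed between and within tissues. Fibroblast markers (Pdgfra, Dcn, Lum, Dpt, Pi16, Mfap5 and Tcf21) summed to a median of 255 CPM in SM and 592 CPM in LV, tenocyte markers (Tnmd, Scx, Mkx, Thbs4, Fmod and Comp) to 173 and 22.95 CPM, endothelial markers to 623 and 752 CPM, and Schwann cell markers to 64.2 and 13.4 CPM. In tissue RNA, fewer cells of a type and less RNA per cell cannot be told apart.

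Collagen transcripts made up 0.575% to 2.07% of nuclear-encoded counts in SM (median 0.813%) and 0.587% to 1.17% in LV (median 0.884%). At least 10 counts were present in every library of the tissue for 35 of the 44 genes in SM and 32 in LV. Col10a1, the collagen of growth-plate cartilage, had a median of 0 counts in SM and at most 3 counts in any SM library. The cartilage chains Col9a1 and Col9a2 had at most 13 and 11 counts in SM. These 3 genes were too low to be tested in SM or LV.

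**Figure D1:**
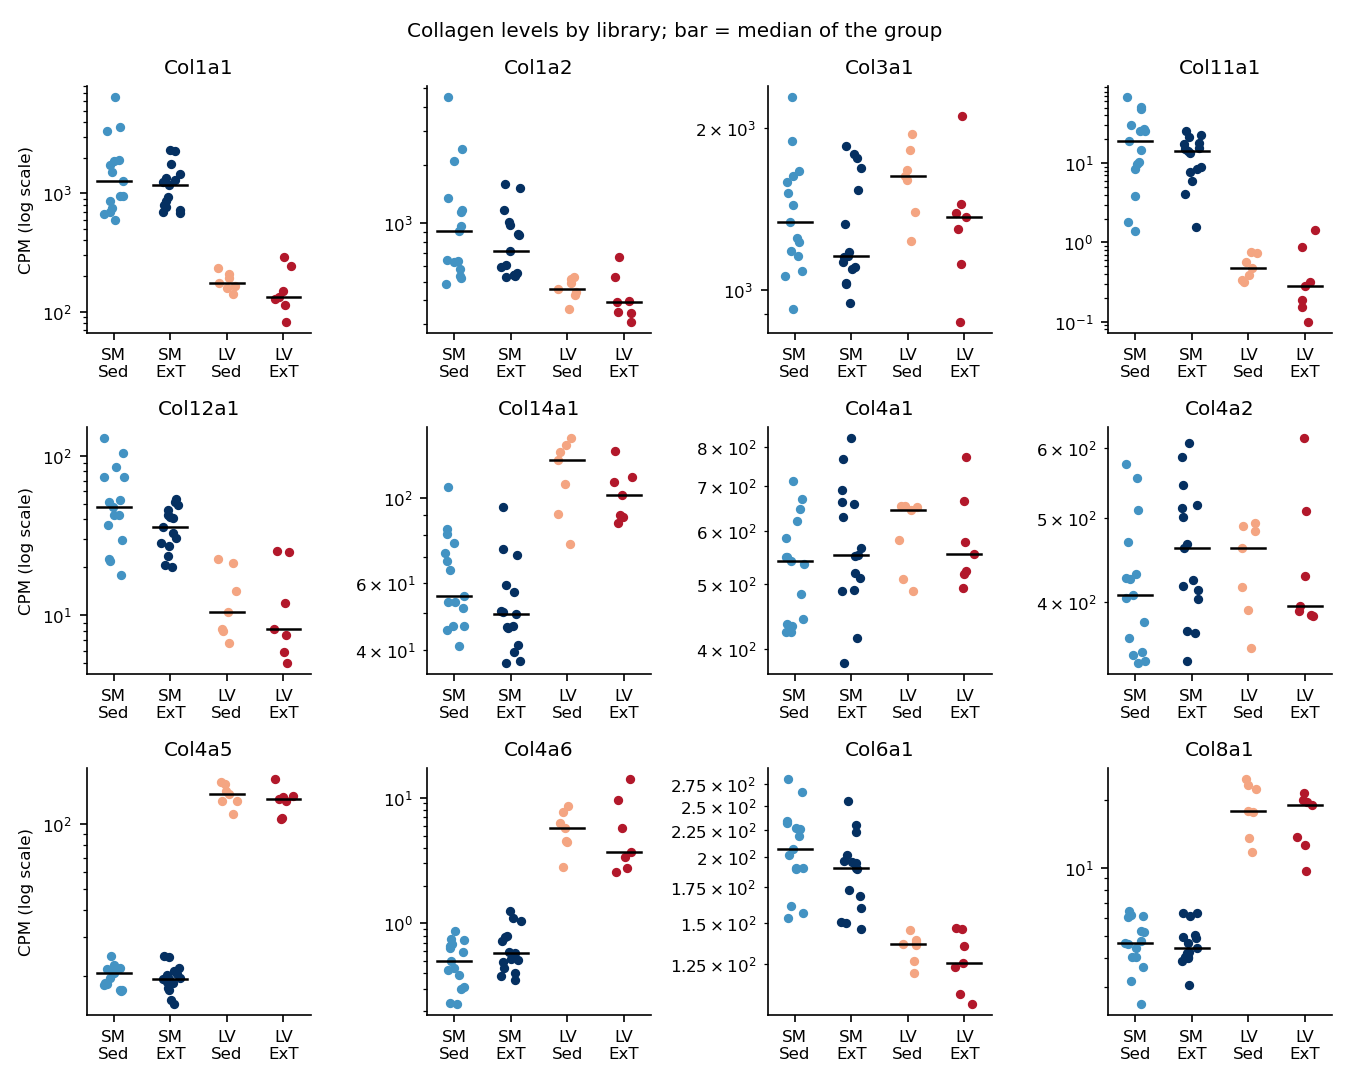
Levels of 12 collagen genes in CPM on a log axis, 1 point per library, in SM (15 Sed and 15 ExT) and LV (7 Sed and 7 ExT), with a bar at the group median. Col1a1 lies higher in SM and Col4a5 higher in LV with no overlap, Col11a1 overlaps in 1 ventricle library (1.42 CPM against a muscle minimum of 1.41 CPM), and Sed and ExT overlap in every panel.

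The ventricle and the limb muscle differed in which collagen chains they carried, and the classes went different ways. In sedentary rats 10 collagen genes were higher and 20 lower in LV than in SM of 40 tested, and in trained rats 9 were higher and 19 lower of 39, at an adjusted p below 0.05 in edgeR's quasi-likelihood test over all genes. These tests used the 7 rats per arm that gave both tissues. Of all genes tested, 78.7% were called in sedentary rats (40% higher and 38.6% lower) and 79.3% in trained rats (39.7% and 39.5%), so 30 of 40 and 28 of 39 are close to the background, and the classes are described by their directions. In 26 genes the call and its direction were shared by both arms, 8 higher and 18 lower, and no gene was called in opposite directions. Among the lower genes, Col2a1 (both arms) and Col6a5 (sedentary rats) passed the low-count filter through SM. Among the higher genes, Col17a1 (trained rats) passed it through LV. The direction of these calls was not free. The median log2 difference was -0.32 over the collagens in both arms, against 0.04 and 0.01 over all genes. Scaling by library totals moved the median of all genes to 0.28 and 0.21. Relative to the median of all genes, 15 collagen genes lay above and 25 below in sedentary rats, and 14 and 25 in trained rats. These counts were the same under all 3 scalings. That is no separate support, since a change of scaling moves all genes by nearly the same amount. LV and SM libraries were made with different kits and from different RNA inputs (100 ng and 50 ng), which cannot be told apart from tissue in any of these differences.

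Among the fibrillar genes, 7 were lower and 2 higher in LV in sedentary rats, and 7 were lower and 1 higher in trained rats, of 11. Col1a1, the α1 chain of type I collagen, ranged from 593 to 6478 CPM in SM_Sed (median 1282), 682 to 2334 CPM in SM_ExT (median 1182), 142 to 232 CPM in LV_Sed (median 177) and 82.4 to 288 CPM in LV_ExT (median 132). The lowest muscle library was above the highest ventricle library. The log2 difference was -3.58 ± 0.58 (SE, adjusted p = 7.7e-05) in sedentary rats and -3.14 ± 0.34 (adjusted p = 7.5e-07) in trained rats. Col1a2, the partner chain, had medians of 912 and 720 CPM in SM_Sed and SM_ExT and of 455 and 393 CPM in LV_Sed and LV_ExT, and its groups overlapped. Its log2 difference was smaller, -1.71 ± 0.51 (adjusted p = 0.0079) and -1.23 ± 0.24 (adjusted p = 1.7e-04). With each rat as a block the sedentary value was -1.16 ± 0.47 (adjusted p = 0.0586), which ends that call. Rats 20 and 31 had the highest Col1a1 levels in SM (6478 and 3631 CPM). Without both rats, chosen after seeing the data, the sedentary difference was -2.41 for Col1a1 (adjusted p = 2.52e-05), -0.61 for Col1a2 (adjusted p = 0.0279) and -4.45 for Col11a1, and 27 genes were called, 8 higher and 19 lower.

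The ratio of Col1a1 to Col1a2 counts set the tissues apart in every library. It was 1.23 to 1.64 in the 30 SM libraries (median 1.45) and 0.266 to 0.465 in the 14 LV libraries (median 0.388). The ratio is of raw counts, not per length, so its size is not a chain stoichiometry, and only its difference between tissues is given. The kits differed between tissues here as well.

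Col3a1, the chain of type III collagen, showed little of this difference. It ranged from 920.5 to 2280.4 CPM in SM and from 871 to 2108 CPM in LV, with medians of 1339 (SM_Sed), 1156 (SM_ExT), 1626 (LV_Sed) and 1367 CPM (LV_ExT), and the groups overlapped. It was 0.30 ± 0.13 log2 units higher in LV in sedentary rats (adjusted p = 0.0378), a call that RLE size factors end (adjusted p = 0.0501), and 0.15 ± 0.17 in trained rats (adjusted p = 0.426). Col5a1 and Col5a2, chains of the type V collagen found inside type I fibrils, had differences of 0.00 and -0.08 in sedentary rats and -0.12 and -0.10 in trained rats and were not called, with 95% intervals inside -0.40 to 0.22. The third type V chain, Col5a3, was lower in LV (-0.93 and -0.999). The larger differences were in chains known from cartilage and tendon. Col11a1 had a median of 18.9 CPM in SM_Sed and 14.2 CPM in SM_ExT against 0.471 and 0.279 CPM in LV, with log2 differences of -5.61 ± 0.90 (adjusted p = 7.6e-05) and -5.21 ± 0.65 (adjusted p = 6.2e-06). Col2a1, the main collagen of cartilage, differed by -4.99 and -4.25 and Col11a2 by -3.58 and -2.75. Col2a1 was too low to be tested within LV, so it passed the low-count filter through SM and its direction was not free. Col27a1 was higher in LV, by 0.53 and 0.50.

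No basement membrane gene was called lower in LV. Of 8, 6 were higher in sedentary rats and 5 in trained rats, and the size of the difference depended on the chain. Col4a5 had 16.9 to 24.7 CPM in SM_Sed (median 20.6), 14.8 to 24.6 CPM in SM_ExT (median 19.3), 112 to 157 CPM in LV_Sed (median 138) and 105 to 161 CPM in LV_ExT (median 131). Every ventricle library was far above every muscle library, and the log2 differences were 2.80 ± 0.09 (adjusted p = 6.1e-16) and 2.77 ± 0.11 (adjusted p = 1.3e-14). Col4a6, its trimer partner, whose gene starts 1415 bases away in the reference, was low in muscle (0.229 to 1.26 CPM) and had 2.57 to 14.02 CPM in the ventricle, a difference of 3.31 ± 0.29 (adjusted p = 1.0e-08) and 3.29 ± 0.46 (adjusted p = 1.1e-05). Col4a3 was higher in LV by 0.89 and 0.88, again with no overlap between the 7 and 7 libraries in either arm.

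The α1 and α2 chains of the common trimer stayed close between tissues. Col4a1 had medians of 542, 552, 645 and 555 CPM in SM_Sed, SM_ExT, LV_Sed and LV_ExT, and Col4a2 had 407, 461, 462 and 396 CPM, with overlap throughout. Col4a1 differed by 0.24 ± 0.10 (adjusted p = 0.0397) and 0.15 ± 0.12 (adjusted p = 0.246), and Col4a2 by 0.15 ± 0.09 (adjusted p = 0.127) and 0.04 ± 0.11 (adjusted p = 0.760). The sedentary Col4a1 call was lost with RLE size factors (adjusted p = 0.0538), in rats 17 to 32 alone (adjusted p = 0.0578) and without rats 20 and 31 (adjusted p = 0.104), while library totals added calls for Col4a2 in sedentary rats (0.40, adjusted p = 0.0018) and for Col4a1 in trained rats (0.35, adjusted p = 0.0210). The ratio of Col4a5 to Col4a1 counts was 0.0250 to 0.0494 in SM and 0.173 to 0.293 in LV. Col4a4 was 0.24 higher in sedentary rats (adjusted p = 0.0464, and 0.0510 with each rat as a block) and 0.28 higher in trained rats. Col15a1, which bridges basement membrane and fibrils around vessels and muscle, was 0.37 ± 0.11 (adjusted p = 0.0048) and 0.23 ± 0.10 (adjusted p = 0.0473) higher. The trained call was lost with RLE size factors (adjusted p = 0.0526), with thinning (adjusted p = 0.0649) and in rats 17 to 32 alone (0.17, adjusted p = 0.171). Col18a1, the source of endostatin, was not called (-0.07 and -0.23).

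**Figure D2:**
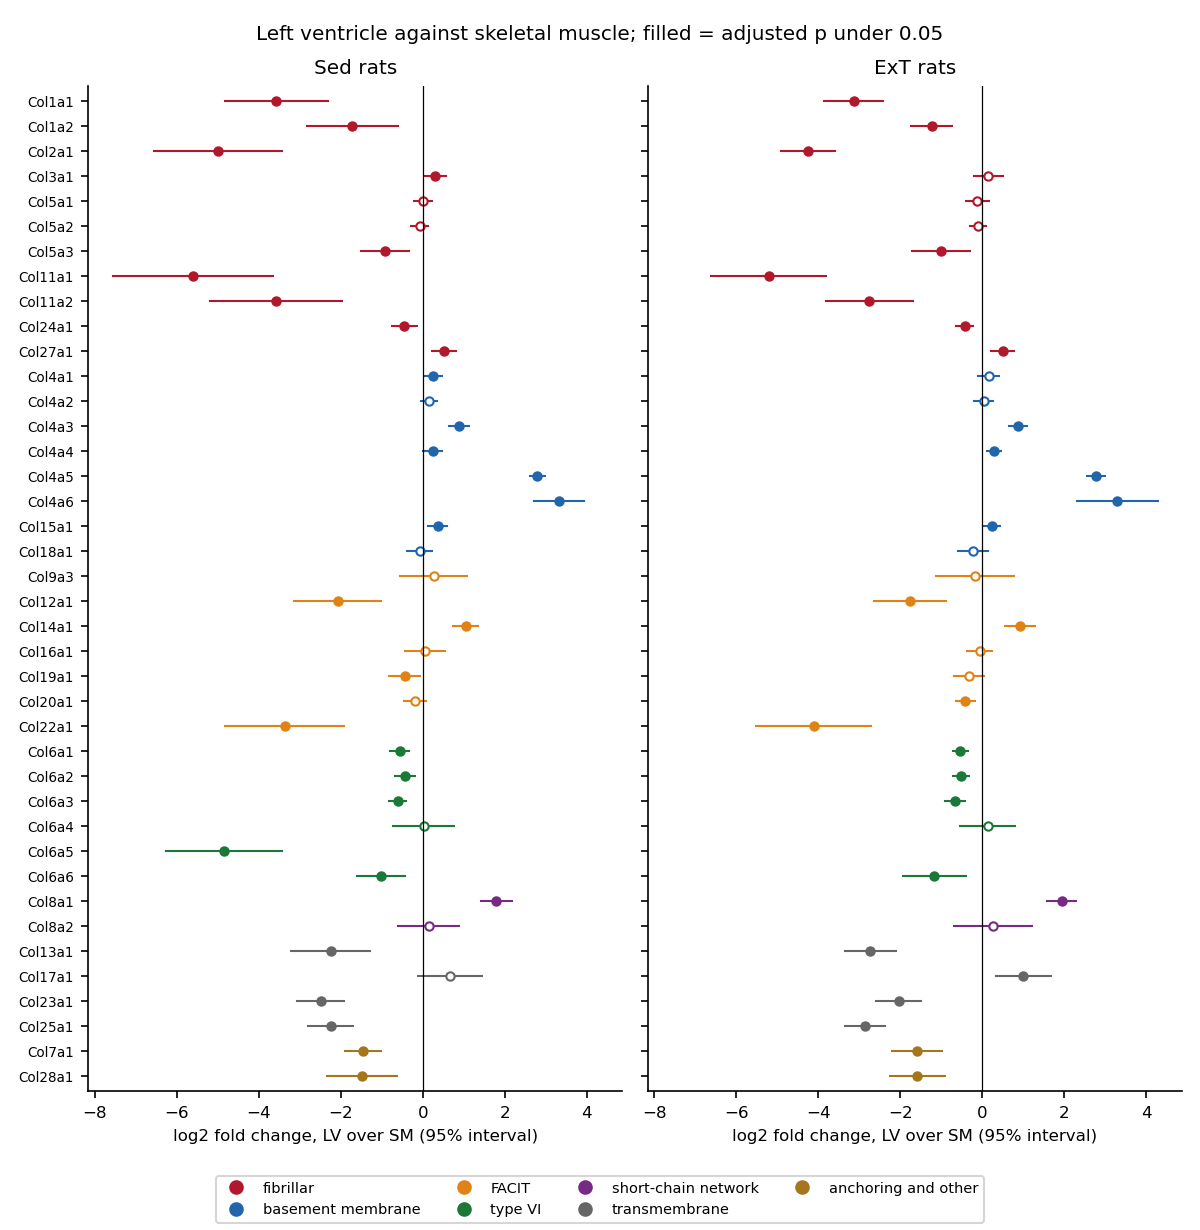
Log2 difference of LV over SM for each tested collagen gene with its 95% interval, in sedentary and trained rats (7 against 7 libraries each), coloured by class and filled where the adjusted p was below 0.05. Type IV points lie at or above 0, up to 3.31 for Col4a6, and the fibrillar points reach down to -5.61 for Col11a1.

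The type VI chains Col6a1, Col6a2 and Col6a3, which form the main trimer, were lower in LV in both arms. Col6a1 had medians of 207 and 191 CPM in SM_Sed and SM_ExT and 137 and 126 CPM in LV_Sed and LV_ExT, a difference of -0.57 ± 0.11 (adjusted p = 7.8e-05) and -0.54 ± 0.09 (adjusted p = 1.5e-05). Col6a2 differed by -0.44 ± 0.12 and -0.52 ± 0.10, and Col6a3 by -0.61 ± 0.10 and -0.66 ± 0.11. The sedentary Col6a2 call was lost with library totals (-0.20, adjusted p = 0.168). Col6a6, a chain that can replace α3, was lower (-1.01 and -1.17). Col6a5 had a median of 0.535 CPM in SM_Sed and 0.773 CPM in SM_ExT and at most 14 counts in any LV library. It was called lower in LV in sedentary rats. Since Col6a5 was too low to be tested within LV, its direction was not free. Col6a4 was low in both tissues and not called.

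The FACIT genes did not move as a class. Col14a1, a fibril-surface collagen of connective tissue, was higher in LV by 1.05 ± 0.15 and 0.91 ± 0.17, with medians of 55.4 and 49.7 CPM in SM and 126 and 102 CPM in LV. Col12a1, the related tendon and ligament collagen, was lower (-2.08 ± 0.49 and -1.77 ± 0.40), as was Col22a1 (-3.37 ± 0.66 and -4.11 ± 0.64). Col16a1 had differences of 0.05 and -0.06 and was not called. Outside the fibril system, Col8a1, a short-chain collagen of vessel walls, was higher in LV by 1.79 and 1.94, with no overlap. The transmembrane genes Col13a1, a component of the neuromuscular junction, Col23a1 and Col25a1 were lower in both arms, with differences from -2.86 to -2.04. Col17a1 was 0.67 higher in sedentary rats (adjusted p = 0.106) and 1.00 higher in trained rats (adjusted p = 0.0079). It was too low to be tested within SM, so it passed the low-count filter through LV and its direction was not free. Col7a1, the anchoring fibril collagen, was lower (-1.45 and -1.59). Groups did not overlap for 15 of 40 collagen genes in sedentary rats, against 56.1% of all genes, and for 11 of 39 in trained rats, against 57%.

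The genes that fold, process, bind and break down collagen were read from 7 lists with 104 genes in the tables. In sedentary rats 68 of 95 tested were called, 36 higher and 32 lower in LV, and in trained rats 71 of 94, 38 higher and 33 lower, both near the background above. Partners of type IV in the basement membrane were higher in LV in 8 of 10 cases in both arms, with 1 lower in sedentary and 2 lower in trained rats. In sedentary rats the laminin chains Lama2, Lama4, Lamb1 and Lamb2 were 1.66, 1.08, 1.21 and 0.62 log2 units higher, and Nid2 (nidogen) was lower, at -0.67 and -0.76 in the 2 arms. Fibril partners were split, 4 higher and 7 lower of 17 in sedentary rats and 5 and 6 in trained rats. Lum and Aspn, small proteoglycans of fibrils, were 1.55 and 1.35 higher in sedentary rats, and Thbs4, a thrombospondin of tendon, and Fn1 (fibronectin) were lower (-4.32 and -1.32). Of the folding and modification genes, 10 were higher and 7 lower of 21 in sedentary rats and 11 and 5 in trained rats. P4hb, the shared subunit of prolyl hydroxylase, was 1.11 and 1.12 higher, and Ppib, which isomerises prolines in the chains, was 1.12 and 1.04 higher.

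The other lists had calls in both directions. Processing and cross-linking genes were called higher in 5 and lower in 5 of 14 in sedentary rats and 4 and 7 in trained rats, with Tgm2, a transglutaminase, 1.72 and 1.76 higher and Furin, a proprotein convertase, lower (-1.18 and -1.23). Degradation genes were 4 higher and 3 lower of 13, and 4 and 4 in trained rats, with the matrix metalloproteinase Mmp2 0.98 and 0.87 higher. Collagen receptors were 2 higher and 3 lower of 8, and 3 and 3 of 7 in trained rats. Among them Itga11, the α11 integrin chain that binds fibrillar collagen, was lower (-3.04 and -2.61) and the discoidin receptor Ddr2 was 0.46 and 0.55 higher. Known inducers of collagen genes were 3 higher and 6 lower of 12 in both arms, with Smad3 (-2.82 and -2.76) and Tgfb1 (-2.24 and -2.06) among the lower.

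More of the tenocyte and Schwann markers were called lower than higher in LV, on lists of 5 or 6 tested genes. Of all genes, 40% were called higher and 38.6% lower in sedentary rats, and 39.7% and 39.5% in trained rats. No marker list was tested against these shares. Of the tenocyte markers 3 were called lower and 1 higher in LV of 5 tested in sedentary rats and 6 in trained rats, and of the Schwann markers 3 lower and 1 higher of 5. Tnmd, the defining tenocyte gene, had a median of 0.00706 CPM in LV. Of the fibroblast markers 5 and 6 of 7 were called higher in the 2 arms and none lower, and of the endothelial markers 5 of 8 were higher and 1 lower in both. Lum, Dcn, Dpt, Thbs4, Fmod and Comp are fibril partners as well as markers. The part of these cell types in the differences between tissues was not tested.

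Within muscle, the collagen genes varied very differently from rat to rat. Over the 30 SM libraries the highest level was 10.9 times the lowest for Col1a1, 48.0 times for Col11a1, 57.3 times for Col11a2 and 54.5 times for Col22a1, but 2.48 times for Col3a1 and 1.67 to 2.16 times for the type IV genes Col4a1 to Col4a5. The coefficient of variation was 79.2% for Col1a1 and 84.6% for Col11a1, and 12.8% to 19.9% for those type IV genes. One sedentary library, rat 20, was the highest for Col1a1, Col1a2, Col2a1, Col11a1, Col12a1 and Col16a1. Another, rat 24, was the highest for Col3a1, the type V genes, Col6a1 to Col6a3 and Col14a1. In LV the spread of Col1a1 was 3.49-fold, and trained rats 14 and 25 were the highest and the lowest libraries for Col1a1, Col1a2, Col3a1 and Col4a5.

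**Figure D3:**
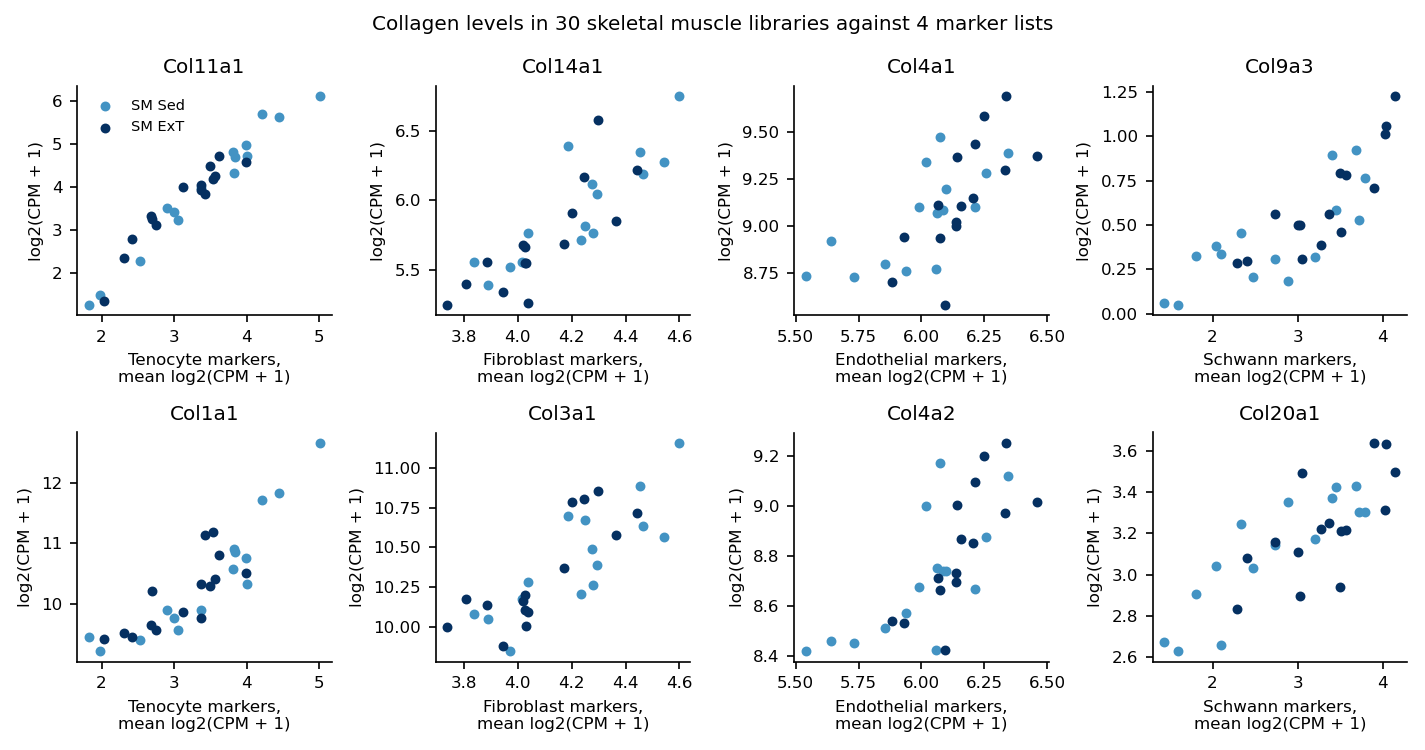
Collagen levels against marker levels in the 30 SM libraries, both in log2 (CPM + 1), with the marker level as the mean over its list, Sed and ExT coloured. Col11a1 and Col1a1 climb with the tenocyte level, Col14a1 and Col3a1 with the fibroblast level, Col4a1 and Col4a2 with the endothelial level and Col9a3 and Col20a1 with the Schwann level.

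These patterns were followed against the level of each marker list in the same library, taken as the mean log2 (CPM + 1) over the list, with an edgeR slope for every gene and arm as a covariate. The slopes were added after the levels had been seen. Against the tenocyte level 12 of 38 collagen genes were called in SM, 10 rising and 2 falling with it (background 1.86%, with 1.3% rising and 0.553% falling). Col11a2, Col11a1 and Col22a1 had slopes of 1.80, 1.75 and 1.53 log2 units per log2 unit of marker level, and Col1a1, Col2a1, Col1a2 and Col12a1 had 0.99, 0.97, 0.91 and 0.86. Col8a2, Col16a1 and Col13a1 had smaller positive slopes, and Col9a3 and Col20a1 negative ones (-0.77 and -0.22). Pearson's r with the tenocyte level was 0.97 for Col11a1 (Spearman's rho 0.97) and 0.88 for Col1a1 (rho 0.89), each with permutation p = 1e-05, the smallest that 100000 resamples can give. Without the 2 libraries farthest from the median tenocyte level r was 0.97 and 0.85. Within rats 2 to 16 and rats 17 to 32 it was 0.97 and 0.99 for Col11a1 and 0.82 and 0.91 for Col1a1.

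The fibroblast level went with another group of chains, namely Col14a1, Col3a1, Col5a2, Col5a1 and the type VI genes Col6a1 to Col6a3. These 7 of 38 were called, all rising (background 1.95%, with 1.92% rising and 0.0295% falling), with slopes of 1.51 for Col14a1, 1.28 for Col3a1 and 0.90 to 0.99 for the others. Pearson's r was 0.85 for Col14a1 (rho 0.87) and 0.82 for Col3a1 (rho 0.83), both with permutation p = 1e-05, and 0.81 and 0.78 without the 2 farthest libraries. Both held within each range of rat numbers, at 0.81 and 0.88 for Col14a1 and at 0.75 and 0.86 for Col3a1. Col1a1 was not among those called against the fibroblast level, and Col3a1 was not among those called against the tenocyte level. The difference between slopes was not tested.

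Against the endothelial level 4 of 38 genes were called, all rising and near the share of all genes (background 7.75%, with 4.82% rising and 2.93% falling): Col4a1 (slope 1.03), Col4a2 (0.95), Col15a1 (0.85) and the transmembrane gene Col25a1 (1.23). Pearson's r was 0.69 for Col4a1 (rho 0.73, permutation p = 2e-05) and 0.73 for Col4a2 (rho 0.76, permutation p = 1e-05), and within each range of rat numbers 0.85 and 0.69 for Col4a1 and 0.87 and 0.68 for Col4a2. Against the Schwann level 13 genes were called (background 2.2%), 4 rising (background 1.29%) and 9 falling (0.906%). Col9a3 rose by 1.19, Col6a5 by 0.97, Col25a1 by 0.40 and Col20a1 by 0.34 per log2 unit, and Col9a3 had r = 0.82 (rho 0.84, permutation p = 1e-05). The 9 that fell were Col11a2, Col11a1, Col22a1, Col1a1 (-0.89), Col1a2, Col2a1, Col12a1, Col13a1 and Col16a1, all 9 of which rose with the tenocyte level. The tenocyte level was highest in sedentary rat 20 (5.01), where the Schwann level was 1.60, and lowest in sedentary rat 30 (1.83), where the Schwann level was 3.72. Neither slope was fitted with the other level as a covariate, so the 2 sets of relations cannot be told apart. Without the 2 libraries farthest from the median Schwann level 7 were called, 3 rising and 4 falling. In all, 152 relations of a collagen gene with a marker list were computed in SM. The points of each relation share a library and its depth.

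In LV the fibroblast level went with a wider group. Of 38 genes 12 rose with it (background 5.02%) and Col24a1 fell (slope -0.60, background 2.65%), over 14 libraries. Col22a1, Col12a1, Col8a2 and Col4a6 had the steepest slopes, 2.76, 2.39, 2.38 and 2.25, followed by Col8a1 (1.10), Col14a1 (0.99), Col1a2 (0.90) and Col3a1 (0.84), and Col16a1, Col15a1, Col4a5 and Col4a4 had 0.41 to 0.79. Col14a1 had r = 0.93 (rho 0.91, permutation p = 1e-05), and 0.88 without the 2 farthest libraries. Without those libraries 6 genes were called, all rising. Against the tenocyte level only Col11a1 was called (background 0.069%), a call lost without the 2 farthest libraries or with rat range as a covariate. None was called against the endothelial level, where no gene of the table was called, or against the Schwann level (background 0.0621%). At an unadjusted permutation p below 0.05, 14 of 38 collagen genes were correlated with the endothelial level, 1 rising and 13 falling. With the Schwann level 7 of 38 were, all rising. The share of all genes with such a correlation was not computed. All but 2 LV libraries came from rats 17 to 32, so LV was not split by range.

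The type IV genes that start close together on opposite strands varied together. Col4a1 and Col4a2 had r = 0.96 (rho 0.95) over the 30 SM libraries and r = 0.97 (rho 0.94) over the 14 LV libraries. Each was the other's closest collagen gene among 37 in both tissues. Col4a3 and Col4a4 had r = 0.88 (rho 0.85) in SM and 0.91 (rho 0.90) in LV and were also each other's closest in both. The third pair, whose windows do not overlap, differed by tissue. Col4a5 and Col4a6 had r = 0.19 (rho 0.12, permutation p = 0.319, adjusted p = 0.319) in SM, where Col4a6 had only 5 to 35 counts, and r = 0.79 (rho 0.80, permutation p = 6.3e-04, adjusted p = 6.9e-04) in LV. Within SM, r for this pair was 0.62 in rats 2 to 16 and -0.06 in rats 17 to 32. The difference between tissues was not tested.

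Other pairs moved as closely without this layout. Col1a1 and Col1a2, which lie on different chromosomes, had r = 0.99 in SM and 0.94 in LV. Col6a1 and Col6a2, neighbours on chromosome 20, had r = 0.95 in both, and Col3a1 and Col5a2, neighbours on chromosome 9, had r = 0.86 and 0.95. Apart from the Col4a5 and Col4a6 pair, each Pearson permutation p was 1e-05, with an adjusted p of 1.2e-05 over the 12 relations. Without the 2 farthest libraries r stayed at 0.80 or above for all of these pairs. Within each range of rat numbers in SM, r was 0.86 or above for all pairs but Col4a5 and Col4a6. Counting without strand could share reads between genes that overlap, and whether the authors' counting used strand is not given in the sources used here.

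Few relations were found between a rat's muscle and ventricle levels. With 14 rats an r of -0.43 (Col18a1) had a permutation p of 0.122, so weaker relations could have been missed. Of 36 collagen genes tested over the 14 rats with both tissues, 3 had a permutation p below 0.05, with a median r of 0.03. The clearest was Col5a3 (r = 0.91, rho 0.80, permutation p = 3e-05, and r = 0.79 without the 2 farthest rats), followed by Col8a1 (r = 0.77, rho 0.67, permutation p = 0.0013). Within rats 17 to 32 these were 0.93 and 0.75. For Col5a3, rats 25 to 29 had 996 to 1925 counts in LV and 1079 to 1819 in SM. The other rats with both tissues had 2084 to 5441 and 1618 to 2885. The part of these consecutively numbered rats in the relation was not tested.

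Treadmill training left no called collagen gene in any of the sample types. In SM 0 of 38 tested genes passed, where 28 of all 13570 genes did (0.206%, with 0.184% higher and 0.0221% lower). In LV 0 of 38 passed, as did none of all 14488 genes, and in MT 0 of 44 and none of 19281. At an unadjusted p below 0.05 there were 8 of 38 collagen genes in SM, 0 of 38 in LV and 2 of 44 in MT. Over all genes such a p was reached by 1860 of 13570, 855 of 14488 and 912 of 19281. DESeq2 called 0 collagen genes in each. Not tested for low counts were Col9a1, Col9a2, Col6a4, Col10a1, Col17a1 and Col26a1 in SM, and Col2a1, Col9a1, Col9a2, Col6a5, Col10a1 and Col26a1 in LV.

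In muscle the fibrillar estimates shared a sign, but none was called. All 11 fibrillar estimates were below 0 (median log2 difference of ExT over Sed -0.33), 5 of the 8 basement membrane estimates were above 0 (median 0.06), and the median over all genes was -0.01. Of all 13570 genes tested, 6495 had estimates above 0. Col1a1 and Col1a2 varied together in SM (r = 0.99), so the 11 estimates are not independent. The highest Col1a1 levels were in sedentary rats 20 and 31, and leaving out 1 replicate gave -0.67 to -0.28 for Col1a1. Col1a1 had -0.57 (95% interval -1.22 to 0.08, adjusted p = 0.431), Col1a2 -0.56 (-1.17 to 0.06, adjusted p = 0.418) and Col3a1 -0.10 (-0.34 to 0.14, adjusted p = 0.739). Col11a2 had -1.01 (-1.94 to -0.09, adjusted p = 0.321), and Col12a1 -0.62 (-1.12 to -0.12, adjusted p = 0.269). Col4a1 and Col4a2 had 0.11 (-0.09 to 0.31) and 0.13 (-0.05 to 0.31), and Col4a3, Col4a4 and Col4a5 lay between -0.04 and 0.00. The smallest adjusted p was 0.260, for Col28a1 (0.43, 0.09 to 0.77). Tenocyte markers moved with the fibrillar estimates: all 6 were below 0, with a median of -0.61, and their sum was 42.5 to 400 CPM in Sed and 48.9 to 233 CPM in ExT, with medians of 173 in both. With the tenocyte level as a covariate, added after seeing the data, the Col1a1 value was 0.04 (adjusted p = 0.950). Schwann markers had a median difference of 0.60, with none of 5 called, and their sum had medians of 38.6 CPM in Sed and 89.0 CPM in ExT. The part of either cell type in the estimates was not tested.

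**Figure D4:**
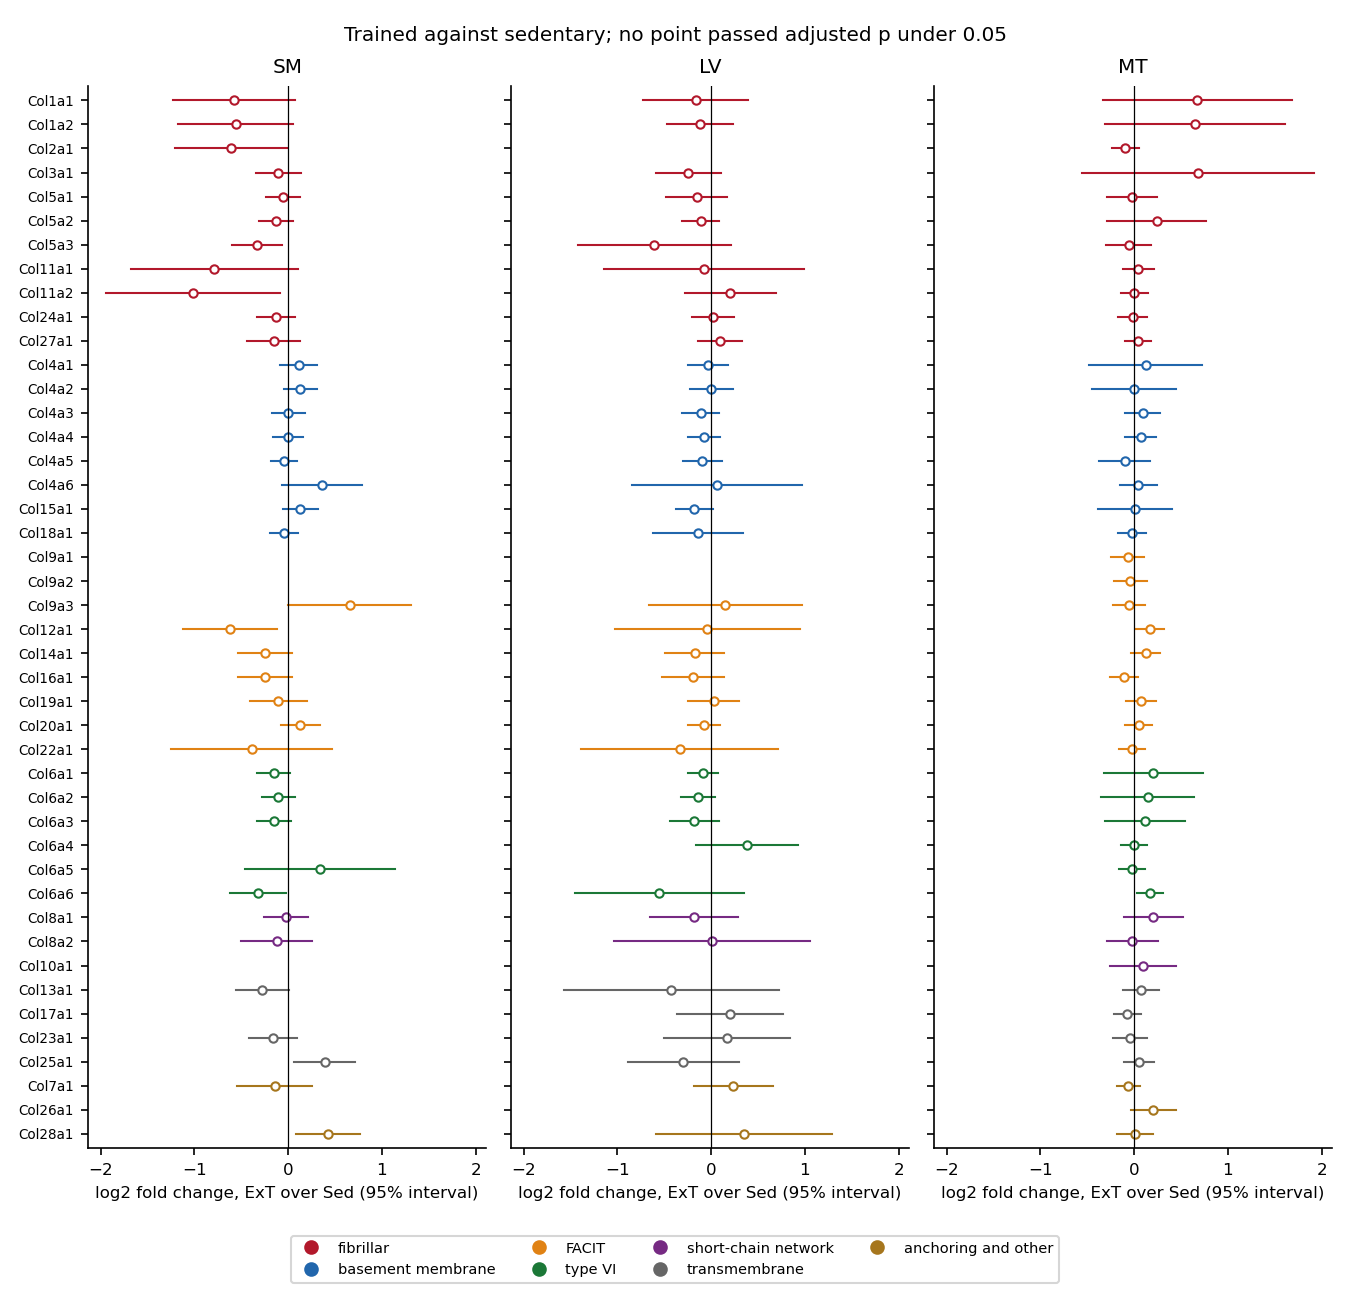
Log2 difference of ExT over Sed with 95% intervals for each tested collagen gene in SM (15 against 15), LV (7 against 7) and MT (15 against 15), on a shared axis. No gene passed the test in any panel, and all fibrillar points of SM lie below 0.

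In the ventricle Col1a1 had -0.16 (95% interval -0.72 to 0.40), Col3a1 -0.24 (-0.59 to 0.11) and Col4a1 -0.03 (-0.25 to 0.18), with adjusted p from 0.828 to 0.969. In MT Col1a1 and Col3a1 both had 0.68 (-0.33 to 1.69 and -0.56 to 1.92, adjusted p = 1.00), and without the 5 MT libraries above 80% mitochondrial-genome counts, left out after seeing the data, -0.20 and -0.18. The training effect was not called different between LV and SM in any of 41 collagen genes (none of 15049 genes called) or between MT and SM in any of 44 (0.0181% of all genes called, 0.00361% higher and 0.0144% lower). At an unadjusted p below 0.05 the second of these held 9 of 44 collagen genes, against 2354 of all 27684 genes, and DESeq2 called no collagen gene. Of the genes that fold, process, bind and break down collagen, training changed 1 of 96 in SM, Tmem38b, which encodes an ion channel of the endoplasmic reticulum (-0.23, adjusted p = 0.0440), 0 of 101 in MT and 0 of 95 in LV.

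The mitochondrial fraction carried reads of every collagen gene. Levels here are CPM computed over nuclear-encoded counts only (nuclear CPM), since mitochondrial-genome counts took 12.9% to 95.4% of MT libraries and 22.1% to 35.9% of SM libraries. Median levels of all 44 genes were above 20 nuclear CPM in MT, from 24.1 for Col10a1 to 288 for Col7a1, while in SM 22 genes were above 20 and 8 were below 1, per gene and not per length. Col1a1 had 872 to 8773 nuclear CPM in SM_Sed (median 1901) and 132 to 1419 in MT_Sed (median 240), and 958 to 3388 in SM_ExT (median 1627) and 149 to 3150.2 in MT_ExT (median 221). Col10a1 went the other way, with at most 3 counts in any SM library and 1 to 30 counts in MT. Col17a1, the hemidesmosome collagen of skin, had 1 to 14 counts in SM and 59 to 187 counts in MT, in libraries with far lower totals. Both genes were too low to be tested within SM. Odorant and vomeronasal receptor genes, which serve in nasal sensory neurons, were read as a comparison: the 1222 genes of this kind took 1.35% to 1.96% of nuclear-encoded counts in MT and 0.000751% to 0.00157% in SM.

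Against SM of the same arm, 22 collagen genes were called higher and 19 lower in MT of 44 in sedentary rats, and 23 higher and 16 lower in trained rats. Of all genes 94.8% (61.7% higher, 33.1% lower) and 94.3% (59.3%, 35%) were called, so the counts are near the background. MT libraries were made from 10 ng of RNA and SM libraries from 50 ng, which cannot be told apart from the fraction in any of these differences. With library totals the split was 30 higher and 10 lower in both arms (75.0% of calls higher, against 53.7% and 59.0%). All genes shifted too, with 77.1% called higher and 12.3% lower in sedentary rats, 73.8% and 11.5% in trained rats, and the median of all genes at 3.43 and 2.92. With all libraries thinned to the smallest total 27 of 35 and 19 of 30 collagen genes were called, against 42.7% and 28% of all genes. The median of all genes was itself 1.81 and 1.31 log2 units higher in MT, and values are therefore given relative to it. On that scale 17 genes lay above and 27 below in sedentary rats, and 19 and 25 in trained rats. The same counts under 3 scalings are no separate support, since a change of scaling moves all genes by nearly the same amount. The type I and type III chains lay lowest, with Col1a1 at -6.74 and -4.95, Col1a2 at -6.74 and -5.00 and Col3a1 at -6.44 and -5.13. Without the 5 MT libraries above 80% mitochondrial-genome counts, left out after seeing the data, Col1a1 lay at -7.56 and -7.34, Col1a2 at -7.57 and -7.20 and Col3a1 at -7.57 and -7.81, and after thinning Col1a1 lay at -3.79 and -2.77 and Col3a1 at -3.76 and -2.87. Col4a1 lay at -5.45 and -4.92, Col4a2 at -5.22 and -4.83 and Col6a1 at -4.87 and -3.98. The Col6a1 calls were lost after thinning (adjusted p = 0.0543 and 0.203). Col17a1 (5.03 and 5.65), Col6a4 (4.36 and 4.91), Col4a6 (2.54 and 2.74) and Col7a1 (1.34 and 1.96) lay above it. Col9a1, Col9a2, Col6a4, Col10a1, Col17a1 and Col26a1 were too low to be tested within SM and passed the low-count filter through MT. Their direction was therefore not free. All 6 are counted among the genes called higher and among those above the median in both arms. In nuclear CPM, Col17a1 was higher in MT than in SM in all 15 rats of each arm, which is no separate support for the same reason. Col1a1 was lower in MT in 15 of 15 sedentary and 14 of 15 trained rats, the exception being trained rat 2 (3150.2 in MT against 1627 in SM). With each rat as a block, Col11a2 gained a call in sedentary rats (0.95, adjusted p = 0.0422).

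**Figure D5:**
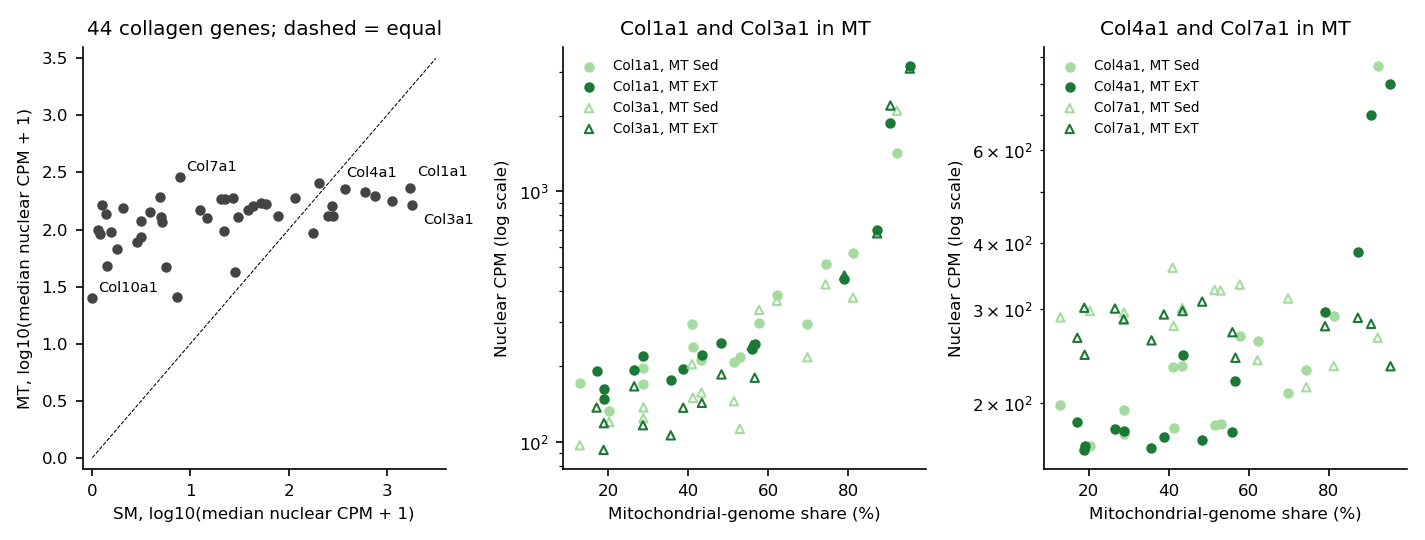
Left, median level of each collagen gene in SM against MT, in log10 (nuclear CPM + 1). Middle and right, levels of Col1a1, Col3a1, Col4a1 and Col7a1 in nuclear CPM on a log axis in the 30 MT libraries (light, Sed; dark, ExT) against the percent of counts from the mitochondrial genome. The MT medians stay between 24.1 and 288 nuclear CPM while those of SM run from 0 to 1817, and the first 3 genes climb with the mitochondrial share while Col7a1 does not.

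Within MT some collagen genes followed the share of mitochondrial-genome counts. The slope of level on that share, with arm as a covariate, was called for 14 of 44 collagen genes, all rising (background 1.64% rising and 0.448% falling). Per 10 percentage points the slopes were 0.56 ± 0.05 for Col3a1, 0.45 ± 0.04 for Col1a1, 0.43 ± 0.04 for Col1a2, 0.25 ± 0.03 for Col4a1, 0.24 ± 0.02 for Col5a2 and 0.06 to 0.22 for Col6a1, Col6a2, Col6a3, Col4a2, Col15a1, Col4a5, Col5a1, Col5a3 and Col4a4. The set held 6 fibrillar, 5 basement membrane and 3 type VI genes, and none of the FACIT, short-chain, transmembrane or anchoring genes. Pearson's r was 0.88 for Col1a1 (rho 0.92), 0.87 for Col3a1 (rho 0.88) and 0.80 for Col4a1 (rho 0.76), each with permutation p = 1e-05, and 0.87, 0.85 and 0.76 without the 2 libraries farthest from the median share. Within rats 2 to 16 and rats 17 to 32, r was 0.89 and 0.88 for Col1a1 and 0.87 and 0.90 for Col3a1. Col7a1 had r = -0.31 (rho -0.27, permutation p = 0.0921). The receptor genes' share of nuclear-encoded counts had r = 0.17 with the mitochondrial share (rho 0.26, permutation p = 0.360). Total counts moved with the share, since the library with the largest share (95.4%) also had the largest total (9988030 counts), and the part of depth or of purity in these slopes was not tested.

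A split of the rats by number, 2 to 16 against 17 to 32, was compared because the labels number the rats in one series. In SM only Col4a3 of 38 collagen genes differed, at -0.25 in the later range (adjusted p = 0.0250), where 12.9% of all genes did (5.97% higher and 6.96% lower). In MT only Col11a1 of 44 differed, at 0.29 (adjusted p = 0.0370), where 1.65% of all genes did (0.711% higher and 0.936% lower), and with library totals it was -0.03.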

How the data were processed

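Total RNA-seq counts of 74 libraries were used (15 SM, 15 MT and 7 LV per arm). The authors deposited whole-number read counts per gene. The submitters' processing notes name FastQC 0.74, cutadapt 4.6, STAR 2.7.11a, HTSeq and the build mRatBN7.2, and the annotation and strand setting are not given in the sources used here. Members and gene lists were chosen with earlier results of these data known. Each comparison was fitted over all genes with edgeR 4.0.16 (R 4.3.3, limma 3.58.1; filterByExpr, TMM scaling, robust quasi-likelihood test, Benjamini-Hochberg adjustment, called at an adjusted p below 0.05), and tissue differences used the 7 rats per arm with both tissues for LV. Standard errors and 95% intervals come from these fits. The fits were tested on simulated data.

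Any collagen gene could be named. Full statistics were given to up to 12 called genes by adjusted p for training, and for tissues to 8 called genes by mean level plus the highest and lowest fold. Values of type I, III and IV chains were given whether called or not, up to 4 called genes per pathway list were named by adjusted p, and cell markers were given as counts and sums. Slopes on marker levels and on the mitochondrial share were chosen after seeing the data, as were their alternatives. Alternatives were RLE size factors, library totals, no filter on low counts, DESeq2 1.42.0, thinning, each replicate left out in the training fits, the replicate block and rat ranges. A planned gauge of background per kilobase was not computed, since no coding lengths were used. Samples of one number came from the same rat, per the labels. Deviations of same-rat samples had a median correlation of 0.00426 (MT and SM) and 0.0152 (LV and SM). Every library was counted, since no pair of libraries within a group agreed within sampling noise (smallest chi-square per degree of freedom 1.23). Pairs from different groups were not compared. Intervals cover the spread between rats. Permutation tests were two-sided, with 100000 resamples.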

Additional observations from a re-analysis of the deposited data

Results flagged for a closer look

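Only the 2 ventricle groups, of 7 libraries each, were of a size examined. Of 76 gene and group combinations there, 3 had a sample far from the others of its group, where chance gives about 1 in 20. These 3 are in LV_Sed. Col5a3, a type V chain, had 13.98 CPM in rat 29, against 43.1 CPM in the nearest and 62.2 CPM in the farthest library. This low level was not confined to rat 29, which had 1029 counts. Trained rats 25, 26, 27 and 28 had 1000, 1521, 996 and 1925 counts in LV, and the other ventricle libraries had 2084 to 5441. Col24a1, a fibrillar chain, had 9.81 CPM in rat 16, against 7.23 and 5.91 CPM. Col7a1, the anchoring fibril chain, had 2.46 CPM in rat 20, against 1.71 and 1.17 CPM.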

How the results depend on the processing

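With the replicate block (same rat), 28 collagen genes were called in LV against SM in both arms, and 42 and 39 in MT against SM; Col1a2 (-1.16, adjusted p = 0.0586) and Col4a4 (0.26, adjusted p = 0.0510) lost their calls in sedentary LV against SM, and Col11a2 gained one in sedentary MT against SM (0.95, adjusted p = 0.0422). The block changed no other call of a collagen gene. No paired analysis was possible for training or rat range because the arms and ranges share no rat. Thinned to the smallest total, MT against SM gave 27 and 19 called genes. The 1 call by rat range became 0 with library totals, 2 with DESeq2, 0 in Sed and 5 in ExT in SM. In MT it became 0 with library totals, 0 without the filter, 3 with DESeq2, and 0 in each arm alone. Without the 2 farthest libraries the Schwann slopes in SM gave 7 calls and the fibroblast slopes in LV 6. The tenocyte slopes in LV gave 3 with library totals, 0 with rat range as a covariate and 0 without the 2 farthest. Some estimates changed sign. In SM training, Col4a1 and Col4a2 were -0.0707 and -0.0175 in rats 17 to 32, and Col1a1 was 0.0399 with the tenocyte covariate. In MT training, Col4a2 was -0.000669 with RLE, -0.0771 with library totals, -0.0103 without the filter, -0.0015 without mitochondrial genes and -0.18 in rats 2 to 16, and Col4a1 was -0.0668 with library totals and -0.17 in rats 2 to 16. Without the 5 libraries of high mitochondrial share, Col1a1, Col1a2, Col3a1, Col4a1 and Col4a2 were -0.20, -0.0236, -0.18, -0.11 and -0.10. Col4a5 in sedentary MT against SM was 0.00019 with library totals, and Col3a1 in trained LV against SM was -0.0166 in rats 17 to 32. The training difference between MT and SM for Col4a1 was 0.014 with RLE and 0.0201 with DESeq2, and that between LV and SM was -0.17 for Col1a1 and -0.0217 for Col1a2 with the replicate block. Col11a1 by rat range in MT was -0.0347 with library totals. Leaving out each replicate in turn gave 0 training calls throughout, -0.67 to -0.28 for Col1a1 and -0.65 to -0.26 for Col1a2 in SM, -0.11 to 0.00621 for Col4a1 and -0.0903 to 0.0364 for Col4a2 in LV, and -0.0785 to 0.40 and -0.14 to 0.20 in MT. The cause was not tested in any of these. Depth limits MT most, where 3 counts equal 0.300 to 5.66 CPM.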
